A study of Mus musculus with 18 samples.

Results

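The genes described here encode 8 proteins of the cartilage matrix and of the precartilage mesenchyme of the limb: the large proteoglycans aggrecan (Acan) and versican (Vcan), the link protein HAPLN1 (Hapln1), the matrilins 1, 3 and 4 (Matn1, Matn3 and Matn4), cartilage oligomeric matrix protein (Comp) and the small proteoglycan epiphycan (Epyc). They were taken by gene symbol, 8 of the 55487 genes in the count files, and were followed by RNA sequencing of mouse forelimb buds through 3 stages of outgrowth. In limb buds without Cre, Acan, Matn1, Matn4 and Comp rose between E10.5 and E11.5, stages named by embryonic day, and Hapln1 fell. In Esco2 mutant limb buds Matn1 and Matn4 were already higher than in controls at E10.5. At E11.5 Acan and Matn4 were far lower in mutants than in controls, and Comp, on few counts, was lower too. Both calls of Comp, and the E10.5 call of Matn4, were lost in some fits that leave out 1 library.

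The study had 18 libraries in 6 groups of 3. Control embryos were Esco2fl/fl, with Esco2 alleles flanked by loxP sites and no Cre, and mutants were Esco2fl/fl;Prrx1-CreTg/0, with the same alleles plus 1 copy of a Cre transgene driven by Prrx1, a promoter of limb mesenchyme. Forelimb buds of each genotype were taken at E9.5, at E10.5 and at E11.5. Every group therefore shares the loxP alleles, only mutants carry Cre, and an effect of Cre itself and of the loss of Esco2, which encodes a cohesin acetyltransferase, cannot be told apart. The surface ectoderm, vessels, blood cells and migrating muscle precursors of a limb bud lie outside the domain of this promoter. Each library came from an individual limb bud. The labels do not tell buds of different embryos or litters apart, so the p-values speak only of the spread among the libraries.

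Aggrecan carries many chondroitin sulfate chains and binds hyaluronan, and link protein locks that bond into the large hydrated aggregates that let cartilage bear load. Versican, its relative, fills the matrix of early limb mesenchyme and of precartilage condensations, where aggrecan later takes its place. Matrilins and COMP are adaptor proteins that tie collagen fibrils to proteoglycans, and epiphycan belongs to the small leucine-rich proteoglycans of growing cartilage. The transcription factors SOX9, SOX5 and SOX6 switch on cartilage matrix genes in the condensations.

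Levels below are CPM, counts scaled to a common library size after normalization by TMM (a trimmed mean of log ratios). Changes are log2 differences ± SE from 1 edgeR quasi-likelihood model over all 18 libraries, with Benjamini-Hochberg adjustment over 20118 genes and a threshold of 0.05 on the adjusted p. Values of the libraries are given in the order of replicates 1, 2 and 3. All 8 genes passed the filter on low counts. Epyc passed it on very few reads, with 9, 19 and 18 counts in the E11.5 controls and at most 12 in any other library.

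Total counts per library ran from 35034237 to 56230058. Esco2 itself had log2 changes of -0.60 ± 0.14, -0.53 ± 0.14 and -0.26 ± 0.14 in mutants at the 3 stages in order, with adjusted p-values of 0.162, 0.0200 and 0.238. The E10.5 call of Esco2 was kept in 14 of 18 alternatives, with adjusted p up to 0.0981, and in 3 of the 6 fits without 1 library. Reads of all Esco2 exons were counted, deleted or not, so these changes check the labels only weakly. The 8 limb mesenchyme markers were all detected in every group. The hindlimb genes Tbx4 and Pitx1 summed to between 1.42 and 16.1 CPM in all libraries, against 874 CPM or more for the summed mesenchyme markers. A pair of libraries stood apart from their groups: control E9.5 replicate 1, with 22294 genes detected against 24125 or more in every other library, and mutant E10.5 replicate 3, in which erythroid markers reached 19863 CPM.

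Coordinates are those of the files' mm10 annotation. Acan (ENSMUSG00000030607.7) lies on chromosome 7 from 79053483 to 79115099 on the plus strand, with its exons merged into 18 blocks, and ends 2 bases from Hapln3, another link protein gene, on the other strand. Vcan (ENSMUSG00000021614.16, chromosome 13, 89655312 to 89742509, minus strand) and Hapln1 (ENSMUSG00000021613.9, chromosome 13, 89539796 to 89611652, plus strand) are neighbours, 43659 bases apart. The matrilin genes are unlinked: Matn1 (ENSMUSG00000040533.7) is on chromosome 4 from 130944385 to 130955475, Matn3 (ENSMUSG00000020583.4) on chromosome 12 from 8947929 to 8972028 and Matn4 (ENSMUSG00000016995.17) on chromosome 2 from 164389393 to 164405160. Comp (ENSMUSG00000031849.9) is on chromosome 8 from 70373558 to 70382066, and Epyc (ENSMUSG00000019936.10) is on chromosome 10 from 97644068 to 97682454, 30375 bases from Kera, which encodes another small leucine-rich proteoglycan.

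The counting was strand-specific, and no gene on the same strand overlaps any of the 8. On the opposite strand, Rbpjl shares 149 exon bases with Matn4, which is 2.88% of the Matn4 exons, and had 0 to 21 counts per library. The long noncoding RNA Gm10754 shares 1041 bases with Epyc, which is 40.6% of its exons, and had 0 to 2 counts.

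The sequences just upstream of Acan, Matn1 and Matn4 are shown because these are the 3 genes whose mutant effect differed between stages. Each is the 250 bases before the RefSeq start (GRCm38.p6), 5′ to 3′ on the strand of the gene, with CG dinucleotides in capitals. They lie at chr7:79052976-79053225 on the plus strand for Acan, chr4:130944135-130944384 on the plus strand for Matn1 and chr2:164405161-164405410 on the minus strand for Matn4, where the table lists a second start that is not shown.
Acan: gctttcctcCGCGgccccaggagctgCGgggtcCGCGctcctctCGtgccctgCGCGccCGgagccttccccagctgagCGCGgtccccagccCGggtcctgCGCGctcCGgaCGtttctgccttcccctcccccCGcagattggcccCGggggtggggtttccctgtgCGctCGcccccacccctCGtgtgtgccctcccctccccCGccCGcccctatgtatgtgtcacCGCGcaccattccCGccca
Matn1: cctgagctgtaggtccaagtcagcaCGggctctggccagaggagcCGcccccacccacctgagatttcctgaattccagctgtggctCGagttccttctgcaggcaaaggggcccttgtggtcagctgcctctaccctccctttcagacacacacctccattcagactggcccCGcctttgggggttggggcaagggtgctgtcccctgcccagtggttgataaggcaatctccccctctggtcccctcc
Matn4: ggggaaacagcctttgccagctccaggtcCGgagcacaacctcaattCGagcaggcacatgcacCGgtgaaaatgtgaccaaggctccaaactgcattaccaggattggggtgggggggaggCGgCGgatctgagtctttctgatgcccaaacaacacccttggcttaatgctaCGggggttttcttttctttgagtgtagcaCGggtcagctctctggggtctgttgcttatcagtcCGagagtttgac

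The Acan window was rich in CG, with 26 CG dinucleotides and a GC content of 74.4%, and it held more CG than 90.4% of the 32851 promoter windows of the same length, whose median was 6. The Matn1 window had 4 CG dinucleotides at 62% GC (more than 37.8% of windows), and the Matn4 window had 8 at 54.4% GC (more than 57% of windows). Of the other genes, Vcan had 10 and Matn3 had 14, and 7 of the 8 genes were in the table, all but Comp. A search on both strands for the SOX-type cores ACAAT and ACAAAG, which 38.8% of all windows held in either form, found neither in the windows of Acan, Vcan, Matn1, Matn3 and Matn4. It found 1 ACAAT in the window of Hapln1, and 2 and 3 in those of the first and the second Epyc start, the second with 1 ACAAAG as well. TATAAA, held by 12.4% of windows, was in none of those of these genes. The motifs do not overlap each other, and a match or its absence describes only these letters in this window.

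Aggrecan was the gene that differed most between genotypes at E11.5. In controls Acan was at 0.274, 0.586 and 0.288 CPM at E9.5, at 0.0820, 0.0886 and 0.319 CPM at E10.5, and at 3.09, 14.0 and 8.30 CPM at E11.5. In mutants it was at 0.179, 0.417 and 0.610 CPM at E9.5, at 0.572, 0.391 and 0.328 CPM at E10.5, and at 0.0487, 0.732 and 0.220 CPM at E11.5. So only the E11.5 controls left the low range, all 3 of them above each of the other 15 libraries, and control replicate 1 was the lowest of them. The rise in controls from E10.5 to E11.5 was 5.66 ± 0.75 (50.4-fold, adjusted p = 0.000418), and the same step in mutants gave -0.31 ± 0.73 (adjusted p = 0.910). At E11.5 mutants were 24.3-fold below controls (log2 change -4.60 ± 0.68, adjusted p = 0.000414), a fall that passed in all 16 alternatives that gave a value. At E10.5 the mutant libraries lay just above the control libraries without overlap, on 60 against 24 counts in all (log2 change 1.37 ± 0.80, adjusted p = 0.270).

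Versican took another course. Control libraries held 73.5, 202 and 202 CPM of Vcan at E9.5, 419, 475 and 385 CPM at E10.5, and 684, 429 and 527 CPM at E11.5. Mutant libraries held 155, 229 and 229 CPM, then 318, 275 and 241 CPM, then 310, 271 and 387 CPM. At E9.5 the genotypes overlapped, with control replicate 1, a library that stood apart, lowest of all, and at E10.5 and E11.5 every mutant library was below every control. Vcan rose in controls from E9.5 to E10.5 by 1.42 ± 0.28 (adjusted p = 0.00173), and by 1.07 without control E9.5 replicate 1 with the call kept, against 0.44 ± 0.28 in mutants (adjusted p = 0.354). The mutant difference fell short of the threshold, with -0.62 ± 0.28 at E10.5 (adjusted p = 0.166) and an E11.5 value of -0.76 ± 0.28 (adjusted p = 0.0753). With DESeq2 the E11.5 value passed (-0.75, adjusted p = 0.0408), as it did without both libraries that stood apart (-0.76, adjusted p = 0.0106). Neither of those libraries is of E11.5, so that fit changed the shared model and not the libraries compared. The E11.5 value passed in 5 of 17 alternatives and in 0 of the 6 fits without 1 library, with adjusted p up to 0.255.

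The link protein gene ran opposite to versican with time. Hapln1 in controls stood at 52.2, 122 and 127 CPM at E9.5, 66.0, 69.4 and 45.8 CPM at E10.5, and 26.9, 18.5 and 25.2 CPM at E11.5. In mutants the same stages gave 129, 123 and 125 CPM, then 93.7, 90.2 and 82.7 CPM, then 33.4, 28.0 and 59.3 CPM. Mean levels stepped down with stage in both genotypes, though the control libraries of E9.5 and E10.5 overlapped. At E10.5 and E11.5 every mutant library was above every control. Hapln1 fell in controls from E10.5 to E11.5 (log2 change -1.36 ± 0.29, adjusted p = 0.00793) and in mutants over the same step (-1.14 ± 0.29, adjusted p = 0.0416). The mutant call held in only 1 of the 6 fits that each leave out 1 library of these groups, that without mutant E11.5 replicate 3, and its adjusted p reached 0.216 without mutant E11.5 replicate 2. From E9.5 to E10.5 the control step was -0.73 ± 0.29 (adjusted p = 0.0668), and it passed without control E9.5 replicate 1 (-1.04, adjusted p = 0.0128). This control step passed in 5 of 18 alternatives. In mutants the step from E9.5 to E10.5 was -0.50 ± 0.29 and not called (adjusted p = 0.291). The mutant difference at E10.5 was 0.56 ± 0.29 (adjusted p = 0.218). At E11.5 it was 0.77 ± 0.29 (adjusted p = 0.0769), where DESeq2 called it (0.78, adjusted p = 0.0359), as did the fit without mutant E11.5 replicate 2 (0.98, adjusted p = 0.0417). The E11.5 difference passed in 4 of 17 alternatives, with adjusted p up to 0.417.

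**Figure D1:**
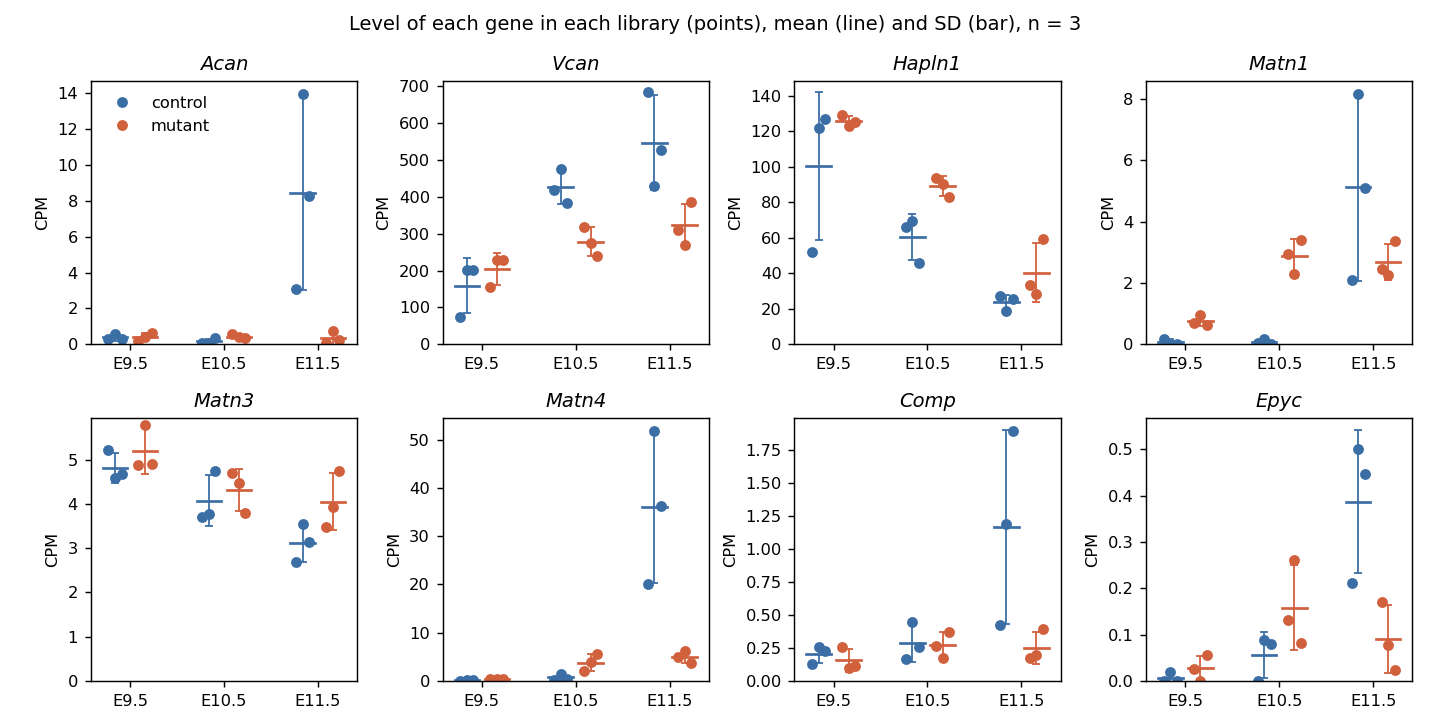
CPM of the 8 genes (vertical axes, linear, each from 0) in every library by stage and genotype, control in blue and mutant in orange, with the mean as a line and the SD of 3 libraries as a bar. Acan, Matn4, Comp and Epyc stand highest in the E11.5 controls, Matn1 is raised in mutants at E10.5, and the mean of Hapln1 steps down with stage in both genotypes.

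Among the matrilins, Matn1, which encodes the matrilin of cartilage in its classical form, was expressed early in mutants. In controls it had 7, 0 and 0 counts at E9.5 and 2, 8 and 0 counts at E10.5, which is at most 0.177 CPM, and then stood at 2.08, 8.17 and 5.09 CPM at E11.5. In mutants it was at 0.691, 0.953 and 0.638 CPM at E9.5, at 2.95, 2.28 and 3.38 CPM at E10.5 and at 2.46, 2.25 and 3.35 CPM at E11.5. The mutant libraries were above every control library at E9.5 and E10.5, and at E11.5 they fell inside the range of the controls. Mutants were 39.3-fold above controls at E10.5 (log2 change 5.30 ± 0.89, adjusted p = 0.000392), a rise called in all 18 alternatives, on 404 counts in mutants and 10 in controls. At E9.5 the difference was 3.84 ± 1.01 (adjusted p = 0.132). It passed with DESeq2 (3.88, adjusted p = 0.000144) and without control E9.5 replicate 1, the only control of that stage with any count (adjusted p = 0.0190). In all, this E9.5 difference passed in 3 of 17 alternatives, with adjusted p up to 0.877. At E11.5 it was -0.93 ± 0.59 (adjusted p = 0.316). In controls Matn1 rose by 6.13 ± 0.89 from E10.5 to E11.5 (adjusted p = 0.000337), while that step in mutants was -0.10 ± 0.59 (adjusted p = 0.974).

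Matn4, a matrilin found in cartilage and in other connective tissues, combined both patterns. Its controls gave 0, 0.275 and 0.123 CPM at E9.5, 0.226, 1.53 and 0.399 CPM at E10.5, and 20.2, 51.9 and 36.2 CPM at E11.5. Its mutants gave 0.410, 0.496 and 0.388 CPM, then 1.96, 3.88 and 5.56 CPM, then 4.89, 6.13 and 3.69 CPM. The genotypes did not overlap at any stage: mutants were the higher at E9.5 and E10.5 and the lower at E11.5. The E9.5 difference, on 55 counts in mutants and 21 in controls, was 1.59 ± 0.86 (adjusted p = 0.499). It was called in 0 of 17 alternatives, and 8.87% of all genes did not overlap at that stage. At E10.5 Matn4 was 5.35-fold higher in mutants (log2 change 2.42 ± 0.58, adjusted p = 0.0113). Leaving out control replicate 1 (1.99, adjusted p = 0.0591), control replicate 3 (2.13, adjusted p = 0.0638) or mutant replicate 3 (2.04, adjusted p = 0.0592) ended that call. At E11.5 it was 7.35-fold lower (-2.88 ± 0.52, adjusted p = 0.00178), in every fit without 1 library. In mutants it rose from E9.5 to E10.5 by 3.12 ± 0.63 (adjusted p = 0.00290) and then stayed within 0.37 ± 0.53 (adjusted p = 0.851). In controls it rose by 2.29 ± 0.82 over the first step (adjusted p = 0.0360) and by 5.66 ± 0.57 over the second (adjusted p = 9.79e-05). The first of these was lost without control E9.5 replicate 1 (1.79, adjusted p = 0.181), control E9.5 replicate 3 (2.19, adjusted p = 0.0935) or control E10.5 replicate 2 (1.12, adjusted p = 0.327), the last being the only E10.5 control above 1 CPM.

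Matn3, a cartilage matrilin whose mutation in humans causes a skeletal dysplasia, hardly moved. Its lowest library was at 2.69 CPM, an E11.5 control, and its highest at 5.80 CPM, an E9.5 mutant. The genotypes overlapped at all 3 stages, with log2 differences of 0.11 ± 0.18 (adjusted p = 0.809), 0.08 ± 0.18 (adjusted p = 0.807) and 0.37 ± 0.18 (adjusted p = 0.182). Neither genotype passed the threshold over either stage step, and the step that came closest, E10.5 to E11.5 in controls, was -0.38 ± 0.18 (adjusted p = 0.227).

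Comp, whose product binds collagens and matrilins, was scarce, with 4 to 76 counts per library. At E11.5 the control libraries had 0.422, 1.19 and 1.89 CPM and those of mutants had 0.170, 0.193 and 0.391 CPM. In the other 4 groups it lay between 0.0993 and 0.443 CPM. Every E11.5 control was above every E11.5 mutant, by a narrow gap at control replicate 1. Comp was 4.61-fold lower in E11.5 mutants (log2 change -2.21 ± 0.58, adjusted p = 0.0148). Leaving out control replicate 3 (-1.67, adjusted p = 0.105), mutant replicate 1 (-1.999, adjusted p = 0.0612) or mutant replicate 2 (-2.04, adjusted p = 0.0624) ended the call. The control rise from E10.5 to E11.5 (2.01 ± 0.57, adjusted p = 0.0367) held in 2 of 6 such fits. It was lost without control E10.5 replicate 1 (1.72, adjusted p = 0.170) or 3 (1.93, adjusted p = 0.129) and without control E11.5 replicate 2 (1.99, adjusted p = 0.0948) or 3 (1.47, adjusted p = 0.235).

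Epyc had 1, 8 and 46 counts in all at the 3 stages in controls and 3, 22 and 12 in mutants. At E11.5 controls had 0.211, 0.501 and 0.447 CPM and mutants had 0.170, 0.0771 and 0.0245 CPM, without overlap. No difference passed the threshold at this depth (E11.5 log2 change -2.06 ± 0.87, adjusted p = 0.112, and control rise from E10.5 to E11.5 of 2.73 ± 0.93, adjusted p = 0.0673). The control rise passed with limma-voom (3.05, adjusted p = 0.0281) and without both libraries that stood apart (2.72, adjusted p = 0.0469), neither of which is in the groups compared. These were the only 2 of 15 alternatives that called this rise of Epyc, and adjusted p reached 0.241. Its neighbour Kera went from 12.2 CPM in the E11.5 controls to 0.948 CPM in the mutants (-3.68 ± 0.59, adjusted p = 0.000880), a gene named after its values were seen.

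Counted over the comparisons of genotype, 0 of the 8 genes passed at E9.5, where 0.184% of all genes did. At that stage 1 of the 8 had an unadjusted p under 0.05, and DESeq2 called 1, Matn1. At E10.5 there were 2 higher and 0 lower, with 13.9% of all genes called, 7.30% higher and 6.63% lower. At E11.5 there were 0 higher and 3 lower, with 17.5% of all genes called, 8.02% higher and 9.52% lower. The genotypes did not overlap for 2 of the 8 genes at E9.5, for 5 at E10.5 and for 6 at E11.5, beside 8.87%, 46.1% and 40.5% of all genes. With DESeq2, or without both libraries that stood apart, neither of them of E11.5, 5 genes were called at E11.5, Vcan and Hapln1 added. In a limma fit on the authors' log2 FPKM table, where Acan gave no value, 1 was called at E10.5, Matn1, and 1 at E11.5, Comp.

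Over the stages, 2 of the 8 genes were called between E9.5 and E10.5 in controls (27.5% of all genes called) and 5 between E10.5 and E11.5 (9.49%). In mutants 1 was called over the first step (14.0%) and 1 over the second (2.89%). The same step from E10.5 to E11.5 thus moved Acan, Matn1, Matn4 and Comp up in controls and none of them past the threshold in mutants. For Comp the difference between genotypes in that step, tested below as an interaction, was not called (-2.11 ± 0.83, adjusted p = 0.466).

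**Figure D2:**
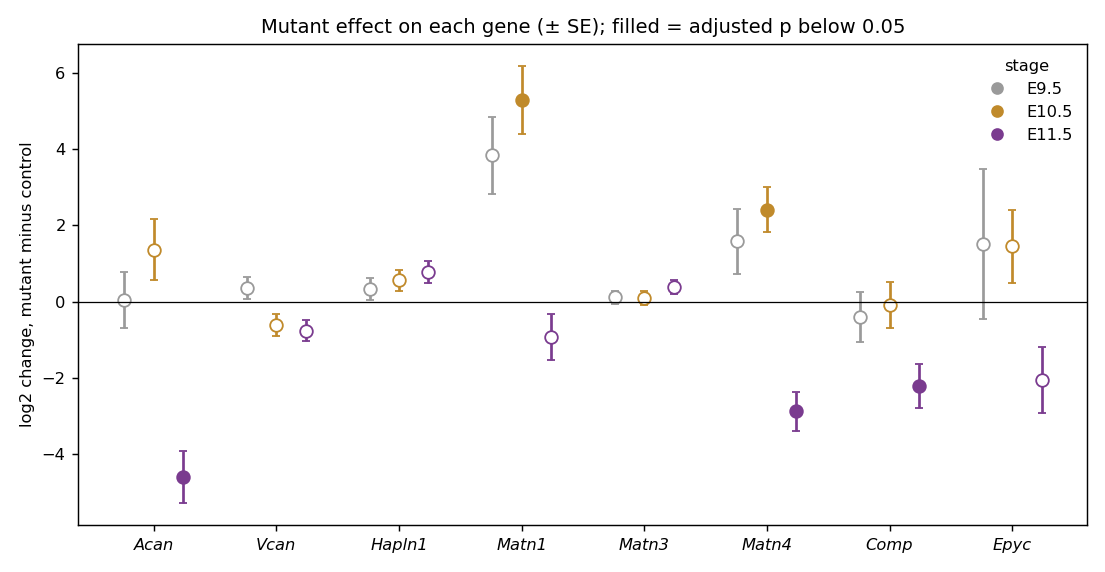
Log2 change of mutant against control for each gene at each of the 3 stages, with SE bars, filled where the adjusted p is below 0.05. Matn1 and Matn4 are above 0 and filled at E10.5, and Acan, Matn4 and Comp are below 0 and filled at E11.5.

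Whether the mutant effect itself differed between stages was tested as an interaction. Between E9.5 and E10.5 it differed for 0 of the 8 genes in edgeR, in DESeq2 and in each of the other alternatives, with 1 unadjusted p under 0.05 in edgeR, that of Vcan, and 2.22% of all genes called. That background, 446 genes, ran from 56 to 2510 over the alternatives, the highest without control E9.5 replicate 2. Between E10.5 and E11.5 it differed for 3 of the 8, with 15 of 20118 genes, 0.0746%, called. That count also varied with the fit: it was 179 genes in DESeq2, 64 without control E11.5 replicate 1, and 0 without control E10.5 replicate 1 or 3, control E11.5 replicate 2 or mutant E10.5 replicate 3. These were Acan (-5.97 ± 1.05, adjusted p = 0.0473), Matn1 (-6.22 ± 1.07, adjusted p = 0.0337) and Matn4 (-5.30 ± 0.78, adjusted p = 0.0200). Both stages enter this test with 3 libraries a group, and the calls lie close to the threshold: Acan and Matn1 each passed in 2 and Matn4 in 3 of the 12 fits without 1 library. All 3 passed without control E11.5 replicate 1, Acan also without mutant E11.5 replicate 2, Matn1 and Matn4 also without control E10.5 replicate 2, and Matn4 also without mutant E10.5 replicate 1. Their adjusted p was at most 0.181, 0.158 and 0.115 in these fits, all 3 of these maxima without control E11.5 replicate 2. The changes kept their sign and were at least 4.62 in size in every alternative. Between E9.5 and E11.5 the same 3 genes were called, with 6.42% of all genes, Acan at -4.65 ± 1.00 (adjusted p = 0.0140), Matn1 at -4.77 ± 1.17 (adjusted p = 0.0165) and Matn4 at -4.46 ± 1.00 (adjusted p = 0.0140), each in all 12 such fits.

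At E11.5 control replicate 1 had the lowest Acan, Matn1, Matn4, Comp and Epyc and the highest Vcan of its group. The descriptions of control replicates 2 and 3 in the labels share a leading number that no mutant library has. They held 14.0 and 8.30 CPM of Acan and 51.9 and 36.2 CPM of Matn4. The description of control replicate 1 begins with the same number as that of mutant replicate 3, and what the numbers mark is not given. Between these 2 libraries alone, Acan was 3.09 CPM in the control and 0.220 CPM in the mutant, and Matn4 was 20.2 and 3.69 CPM. Comp was 0.422 and 0.391 CPM, a far smaller gap than between the groups, and Matn1 was 2.08 CPM in the control and 3.35 CPM in the mutant. At E9.5 control replicate 2 and mutant replicate 1 share such a number, with Matn1 at 0 and 0.691 CPM, Matn4 at 0.275 and 0.410 CPM and Acan at 0.586 and 0.179 CPM. At E10.5, 4 libraries share one, controls 1 and 2 and mutants 1 and 2, and with these alone Matn1 was called (a check added after the data were seen) and Matn4 was not (1.75, adjusted p = 0.192).

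Compared per kilobase of exon, so that genes of different length can be ranked, the order of the 8 genes was remade in controls over the 3 stages. At E9.5 Hapln1 led at 17.0 ± 7.07 CPM per kb (SD, n = 3), followed by Vcan at 11.01 ± 5.13 CPM per kb. Their ranges overlapped, but within each library Hapln1 was above Vcan. Matn3 came next, and its libraries ran from 1.52 to 1.73 CPM per kb. At E11.5 Vcan led at 37.8 ± 8.91 CPM per kb, Matn4 came next at 6.98 ± 3.07 CPM per kb and then Hapln1 at 3.99 ± 0.75 CPM per kb. Below them Matn1 was at 2.56 ± 1.52, Acan at 1.13 ± 0.73, Matn3 at 1.04 ± 0.14, Comp at 0.393 ± 0.247 and Epyc at 0.151 ± 0.060 CPM per kb. Of the neighbours in this order, Vcan and Matn4 were separated without overlap, as were Matn3 and Comp. The ranges of the other adjacent genes overlapped, but within each library Matn1 was above Acan and Comp above Epyc.

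In E11.5 mutants the order was instead Vcan at 22.3 ± 4.09 CPM per kb, Hapln1 at 6.82 ± 2.84, Matn3 at 1.34 ± 0.21, Matn1 at 1.34 ± 0.29 and Matn4 at 0.948 ± 0.235 CPM per kb. Acan at 0.0447 ± 0.0476 CPM per kb stood seventh, between Comp at 0.0848 ± 0.0410 and Epyc at 0.0354 ± 0.0289. The libraries of Vcan and Hapln1, of Hapln1 and Matn3 and of Matn4 and Comp did not overlap, and those of the other neighbours in the order did. The mutants at E9.5 had begun with Hapln1 at 21.3 ± 0.52 CPM per kb and Vcan at 14.1 ± 2.98 CPM per kb, as in controls.

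**Figure D3:**
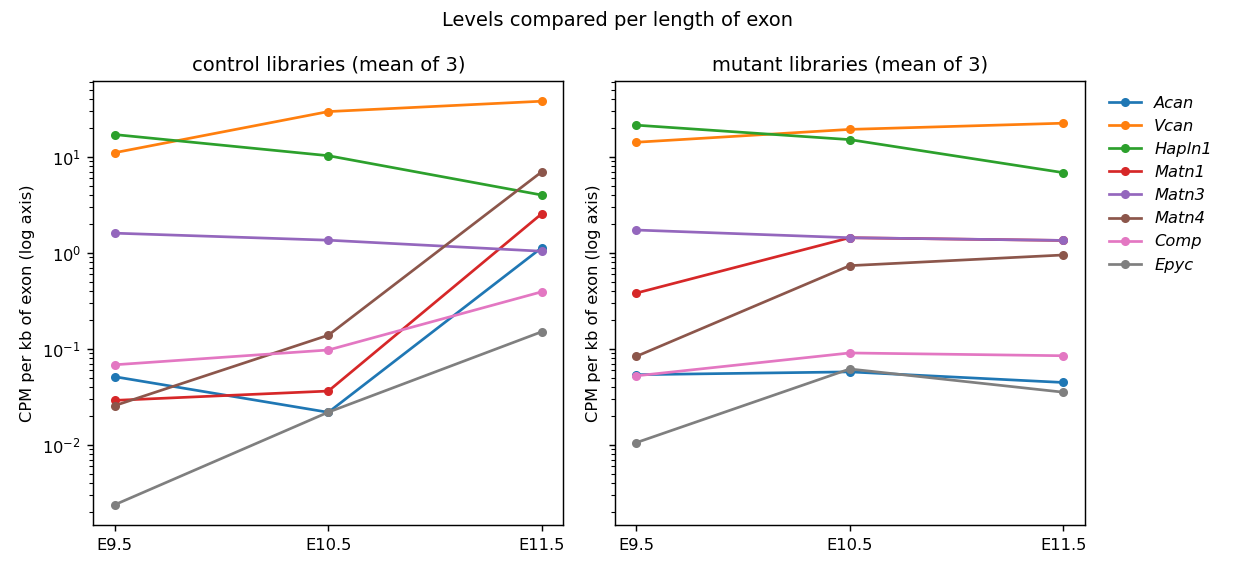
Mean CPM per kb of exon (log axis) of the 8 genes by stage, controls on the left and mutants on the right, each point the mean of 3 libraries. Lines of Acan, Matn1, Matn4 and Comp climb from E10.5 to E11.5 in controls and stay level in mutants, where Matn1 and Matn3 coincide at these 2 stages.

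The factors and collagens that accompany these genes in early cartilage fell in mutants. Of 10 tested SOX factor and cartilage collagen genes 0 passed at E9.5, 8 fell at E10.5 (median log2 change -1.56, against 0.02 over all genes) and 10 fell at E11.5 (median -2.70, against 0.01), beside 6.63% and 9.52% of all genes called lower. Sox9, which encodes the factor that starts cartilage formation, went from 124 ± 17.6 to 21.6 ± 3.29 CPM at E10.5 (SD, n = 3, -2.52 ± 0.18, adjusted p = 2.97e-07) and from 190 ± 19.0 to 24.7 ± 6.10 CPM at E11.5. Sox5, which encodes its partner, fell by 1.76 and 1.79 at the 2 stages (log2 changes -1.76 and -1.79). Col9a1 and Col9a2, which encode chains of the collagen on the surface of cartilage fibrils, fell by 3.29 and 3.19 at E10.5 (log2 changes -3.29 and -3.19). Matn1 and Matn4 were thus higher in mutants at E10.5 in the same libraries in which Sox9 and Col9a1 were lower.

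Lists of genes that build, bind or cut these proteoglycans moved less at E10.5, and in most of them the calls at E11.5 pointed down. At E9.5 0 of the 83 genes tested, of 93 in all 7 lists, passed in edgeR, with 11 at an unadjusted p under 0.05, and DESeq2 called 1 small leucine-rich proteoglycan gene. Over the 7 lists 30 of the 83 passed at E10.5 and 38 at E11.5, and the counts of single lists below stand beside 13.9% and 17.5% of all genes called at these stages. Among 6 tested partners of the aggregates, 1 rose and 1 fell at E10.5 and 0 rose and 2 fell at E11.5. Tnr, which encodes tenascin-R, a ligand of this proteoglycan family, rose at E10.5 (3.25 ± 0.89, adjusted p = 0.0149) from levels near 0. Matn2, the remaining matrilin gene, was lower at E10.5 (-0.78 ± 0.23, adjusted p = 0.0287) and again at E11.5 (-1.17 ± 0.22, adjusted p = 0.00138). Its E10.5 call was kept only without control replicate 3 among the fits without 1 library. Ncan, the gene of the brain proteoglycan neurocan, fell at E11.5 (-1.56 ± 0.47, adjusted p = 0.0298). Without 1 library, the call of Ncan was kept in 1 of 6 fits and the E10.5 call of Tnr in 3 of 6. The count at E10.5 was 0 without control replicate 2 or mutant replicate 3 and 1 without any of the other 4 libraries, and at E11.5 it was 1 without any 1 control or mutant replicate 3.

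Of 10 tested small leucine-rich proteoglycan genes, 1 rose and 1 fell at E10.5, and 4 fell at E11.5 with a median of -1.05. Prelp, whose product anchors collagen near basement membranes, fell at E10.5 (-4.28 ± 1.18, adjusted p = 0.0101) and E11.5 (-3.53 ± 0.81, adjusted p = 0.00738). Podn rose at E10.5 (2.47 ± 0.63, adjusted p = 0.0158), and Ogn, the gene of osteoglycin, and Bgn, that of biglycan, fell at E11.5 (-2.11 ± 0.52, adjusted p = 0.0138, and -0.50 ± 0.14, adjusted p = 0.0170). Without 1 library, the call of Podn was kept in 3 of 6 fits, and those of Ogn and Bgn in 2 of 6 each. The E10.5 count was 1 without control replicate 1 or 2 and 0 without mutant replicate 3, and the E11.5 count was 2 without control replicate 2 or 3 or mutant replicate 2 or 3.

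Hyaluronan is the backbone to which aggrecan and versican bind. Of 11 tested genes of its synthesis, binding and turnover, 2 rose and 2 fell at each of E10.5 and E11.5. Cd44, the hyaluronan receptor gene, rose from 5.59 ± 0.41 to 17.1 ± 1.72 CPM at E10.5 (1.62 ± 0.16, adjusted p = 6.35e-06) and was again higher at E11.5 (1.00 ± 0.16, adjusted p = 0.000504). Ugdh, which encodes the enzyme that makes a sugar precursor of hyaluronan and chondroitin sulfate, was lower at E10.5, with a log2 change of -0.44 ± 0.09 (adjusted p = 0.00316), and its E11.5 change was -0.85 ± 0.09 (adjusted p = 1.17e-05). Has3, a hyaluronan synthase gene, rose (1.47 ± 0.38, adjusted p = 0.0177) and Tnfaip6, whose product modifies hyaluronan, fell (-1.05 ± 0.18, adjusted p = 0.000853) at E10.5. The call of Has3 was lost without control replicate 1 or 3 or mutant replicate 2 or 3, with adjusted p up to 0.0827. At E11.5 Stab2, a hyaluronan clearance receptor gene, rose (3.15 ± 0.46, adjusted p = 0.000174), and Has2, the synthase gene used by limb mesenchyme, fell (-0.74 ± 0.20, adjusted p = 0.0140), both named after their values were seen.

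Chondroitin sulfate chains make up most of the mass of aggrecan and of versican. Of 21 tested genes of their synthesis 3 rose and 1 fell at E10.5, and 0 rose and 6 fell at E11.5 (median -0.24), beside 13.9% and 17.5% of all genes. Papss1, which encodes an enzyme that makes the sulfate donor, fell at both stages (-0.51 ± 0.08, adjusted p = 0.000384, and -0.49 ± 0.08, adjusted p = 0.000411). Slc35d1, a sugar transporter gene needed for cartilage proteoglycans, rose at E10.5 (0.71 ± 0.11, adjusted p = 0.000293), as did Chst7, a sulfotransferase gene (1.15 ± 0.20, adjusted p = 0.00128), and Chpf (0.47 ± 0.14, adjusted p = 0.0297), which encodes a chain-lengthening factor. The call of Chpf was kept in 1 of the 6 fits without 1 library, that without mutant replicate 1. Named after their values were seen, Papss2, the form of the sulfate donor enzyme on which cartilage depends, fell at E11.5 (-1.83 ± 0.39, adjusted p = 0.00410), and so did Chst3, a sulfotransferase gene (-0.997 ± 0.215, adjusted p = 0.00423).

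Genes of the proteases that cut these proteins were called lower more often than higher. Of 11 tested protease genes and their inhibitor, 1 rose and 3 fell at E10.5, and 0 rose and 7 fell at E11.5 (median -0.74). Adamts15, which encodes an aggrecanase and versicanase, fell from 19.6 ± 3.74 to 4.71 ± 1.34 CPM at E10.5 (-2.06 ± 0.28, adjusted p = 0.000154) and from 57.4 ± 15.3 to 10.6 ± 2.44 CPM at E11.5 (-2.43 ± 0.27, adjusted p = 2.67e-05). Adamts7, whose product cuts COMP, was lower at E10.5, with -0.55 ± 0.14 (adjusted p = 0.0113), as it was at E11.5, with -0.83 ± 0.13 (adjusted p = 0.000543), while Adamts8 rose at E10.5 (2.40 ± 0.46, adjusted p = 0.00239). The membrane protease gene Mmp14 fell at both stages (-0.40 ± 0.12, adjusted p = 0.0368, and -0.66 ± 0.12, adjusted p = 0.00145). Without control replicate 2 or mutant replicate 3 the E10.5 count was 2 in place of 4, and the E10.5 call of Mmp14 was lost without either of these or replicate 1 of either genotype.

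Of 14 cell surface and basement membrane proteoglycan genes, 2 rose and 4 fell at E10.5, and 0 rose and 5 fell at E11.5. Sdc4, a syndecan gene that lies 19086 bases from Matn4 on chromosome 2, rose at E10.5 (0.90 ± 0.18, adjusted p = 0.00262), as did the glypican gene Gpc4 (0.82 ± 0.19, adjusted p = 0.00909). Gpc3, the glypican gene with the most reads in the bud, fell at E10.5 (-0.44 ± 0.11, adjusted p = 0.0147) and E11.5 (-0.64 ± 0.11, adjusted p = 0.00106), and Sdc3 fell as well (-0.39 ± 0.09, adjusted p = 0.0112, and -0.48 ± 0.09, adjusted p = 0.00231). The E10.5 count of 6 was 3 without control replicate 2 and 1 without control replicate 3 or mutant replicate 3. The E10.5 call of Gpc3 was lost in each of these 3 fits and without mutant replicate 2.

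**Figure D4:**
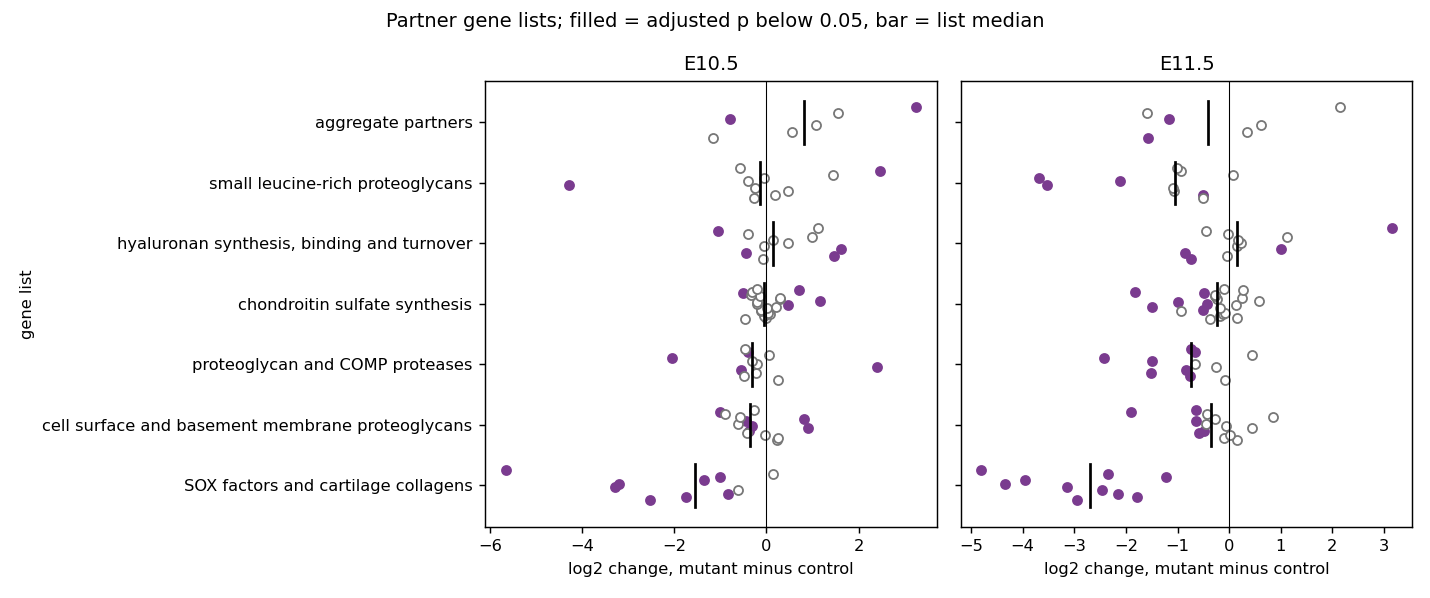
Log2 change of mutant against control for the tested genes of 7 lists at E10.5 (left) and E11.5 (right), 1 point per gene, filled where the adjusted p is below 0.05, with the list median as a bar. The SOX factors and cartilage collagens lie furthest to the left, with medians of -1.56 and -2.70, and no protease or chondroitin sulfate gene is filled to the right of 0 at E11.5.

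Summed levels of the markers of some cell types moved with genotype. The counts of called markers stand beside 7.30% of all genes called higher and 6.63% lower at E10.5. At E11.5 these shares were 8.02% and 9.52%. In a whole bud, fewer cells of a type and less RNA per cell cannot be told apart. Summed over 8 limb mesenchyme markers, controls were at 1856 to 1899 CPM and mutants at 900 to 1172 CPM at E10.5, where 5 markers fell, and at 2093 to 2116 against 874 to 1163 CPM at E11.5, where 6 fell. Surface ectoderm markers summed to 312 to 468 CPM in controls and 628 to 947 CPM in mutants at E10.5 (8 of 9 rose) and to 329 to 569 against 664 to 861 CPM at E11.5 (7 of 9 rose). Macrophage markers went from 16.4 to 22.5 CPM in controls to 32.9 to 60.5 CPM in mutants at E10.5 (4 of 7 rose) and from 32.1 to 41.3 to 79.2 to 182 CPM at E11.5 (6 of 7 rose).

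Erythroid markers summed to 2938 to 6085 CPM in controls and 6328 to 19863 CPM in mutants at E10.5 (6 of 7 rose), and 0 of 7 passed at E11.5. Of the 7 markers of each type, 2 muscle precursor genes were higher in mutants of E10.5 and 3 in those of E11.5, 3 endothelial genes at E10.5 and 1 at E11.5, 1 gene of pericytes and smooth muscle at each stage, and 2 of Schwann cells and neurons at E10.5. The summed pericyte and smooth muscle markers were lower in mutants at E10.5, at 229 to 242 CPM against 312 to 345 CPM in controls. The median log2 change of these markers was 0.56, and at E11.5 the sums overlapped. Schwann cell and neuron markers summed to 53.3 to 70.8 CPM in mutants and 41.4 to 46.1 CPM in controls at E10.5, with a median log2 change of -0.08. Among 7 trunk and somite genes 1 rose and 2 fell at E10.5, and 1 rose and 3 fell at E11.5. At E9.5 0 of 68 markers passed in edgeR, where 0.184% of all genes did, with 8 markers at an unadjusted p under 0.05. No marker was at 0 in all libraries of a group, apart from 1 pericyte marker in the E9.5 controls. The part of these shifts in the values of the 8 genes was not tested.

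Over all 18 libraries, the genes whose log2 CPM ran closest to each of the 8, out of 11717 well expressed genes, were these by Pearson's r. These points share stage, genotype and library, so the values describe likeness only. For Matn4 they included Arhgef3 (0.95) and Rbl2 (0.94), for Vcan Ttc28 (0.98), Amot (0.98) and Fam168a (0.97), and for Hapln1 Mcph1 (0.96), Arid3a (0.96) and Rspo2 (0.95). Acan had no match above 0.83, which it reached with Ggt7, Pofut2 and Snai2, and Snai2 was also among the genes nearest to Comp (0.91), after Rundc3b (0.91) and before Ngly1 (0.89). Those near Epyc included Cx3cl1 (0.91) and Shisa5 (0.89). Matn1 was nearest to Celf4 (0.86), Pid1 (0.86) and Inafm2 (0.84), and Matn3 to Dnajc11 (0.91), Dnaja2 (0.90) and Riox2 (0.90).

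Among the 8 genes themselves, r over the 18 libraries was highest between Matn4 and Epyc (0.87) and between Matn1 and Matn4 (0.81). Acan and Comp were at 0.70, and Hapln1 and Matn3 at 0.71. Vcan and Hapln1, neighbours on chromosome 13, were at -0.50, and the lowest value was that of Matn3 and Matn4 at -0.73.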

How the data were processed

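RNA of 18 forelimb bud libraries, 3 in each of 6 groups taken from the labels, was sequenced. Per the file headers, the deposited counts are whole read pairs per gene from featureCounts 1.6.4, paired and reverse-stranded, over GENCODE M22 exons on mm10. The submitters' processing notes also name cutadapt, STAR and limma. Values of log2 FPKM that the authors deposited for 14692 genes served only as an alternative. Read pairs that map to several places are left out by default, which lowers genes with near-identical copies. Symbols came from GENCODE M21 and matched 99.8% of 55487 identifiers, and promoter windows came from RefSeq.

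In R 4.3.3 with edgeR 4.0.16, filterByExpr kept 20118 genes, and a robust quasi-likelihood model with TMM scaling and 1 coefficient per group took all libraries together. The threshold was an adjusted p of 0.05, and the common BCV (biological coefficient of variation) was 0.231. At these depths counting error limits only genes with few counts, such as Epyc. No 2 libraries of the same group agreed within sampling noise. Alternatives were DESeq2 1.42.0, limma 3.58.1 (voom, and log2 FPKM), other scaling and filters, own groups only, a replicate block, a length trend and libraries left out.

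The 8 genes, the 7 lists of 93 partner genes and the markers were chosen with earlier results of these data known. From each list, up to 4 genes with the smallest adjusted p at E10.5 among those called at any stage were named, and for each of the 8 the 3 genes with the highest r, of which some are not reported here. No set test was run.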

Additional observations from a re-analysis of the deposited data

Results flagged for a closer look

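For 3 of the 8 genes the effect of the mutant genotype differed between stages by edgeR's test of the interaction. Of all genes, 0.0746% were called for E11.5 against E10.5 and 6.42% for E11.5 against E9.5. The calls for E11.5 against E10.5 lay close to the threshold. Of the 12 fits without 1 library, Acan and Matn1 each passed in 2 and Matn4 in 3. The effect on Acan was lower at E11.5 than at E10.5 by a log2 difference of -5.97 (adjusted p = 0.0473) and lower than at E9.5 by -4.65 (adjusted p = 0.0140). For Matn1 the differences were -6.22 (adjusted p = 0.0337) and -4.77 (adjusted p = 0.0165), and for Matn4 they were -5.30 (adjusted p = 0.0200) and -4.46 (adjusted p = 0.0140). All 3 genes rose from E10.5 to E11.5 in controls (log2 5.66 for Acan, 6.13 for Matn1 and 5.66 for Matn4). In mutants the log2 change over that step was -0.31 for Acan, -0.095 for Matn1 and 0.37 for Matn4, none of them called.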

How the results depend on the processing

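Of 858 values of the 8 genes under an alternative, 739 kept their direction and their side of the threshold, 84 lost a call, 26 gained one and 9 reversed. The reversals were of Acan at E9.5 (-0.036 with limma-voom, -0.071 with the length trend removed, -0.079 with that and the replicate block, -0.13 without both libraries that stood apart, and -0.35 to 0.51 without 1 library) and of Comp at E10.5 (-0.39 to 0.34 without 1 library). No reversed value was called, and the cause was not tested. Counts of called genes among the 8 moved as follows. DESeq2 called 1 at E9.5, 5 at E11.5 and 2 in mutants from E9.5 to E10.5, as did the fit without both libraries that stood apart, which called 1 in the interaction of E10.5 with E11.5. With the length trend removed the last 2 of these 3 counts were also 5 and 2. Limma-voom called 1 in controls and 2 in mutants from E9.5 to E10.5, and 1 in each of the interactions with E11.5. With no filter the counts were 1 at E10.5, 1 in controls from E9.5 to E10.5, and 0 both in mutants from E10.5 to E11.5 and in the interaction over that step. With own groups only they were 0, 3, 0 and 1 in controls and mutants from E9.5 to E10.5, in mutants from E10.5 to E11.5 and in that interaction. On log2 FPKM they were 1 at E10.5, 1 at E11.5, 3 in controls from E10.5 to E11.5, and 0 in mutants from E9.5 to E10.5 and in that interaction. With only the E10.5 libraries that share a leading number in the labels, an alternative chosen after seeing the data, they were 1 at E10.5 and 0 in mutants from E10.5 to E11.5 and in that interaction. Without 1 library the counts ran from 0 to 1 at E9.5, 1 to 2 at E10.5, 2 to 3 at E11.5, 1 to 2 and 4 to 5 over the control steps, 0 to 1 in mutants from E10.5 to E11.5 and 0 to 3 in the interaction of E10.5 with E11.5.

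Libraries of the same replicate number correlated in their deviations at -0.148 to 0.184, so the numbers were not taken as a pairing. With the replicate block 0 of the 8 genes were called in mutants from E10.5 to E11.5, where Hapln1 had adjusted p = 0.0532, and Matn1 lost its interaction of E10.5 with E11.5 (adjusted p = 0.0556). Counts over all genes tested ran from 5 (own groups only) to 126 (DESeq2) around 37 at E9.5, from 876 (shared leading number) to 6337 (own groups only) around 2802 at E10.5, and from 2188 (without mutant replicate 3) to 5913 (without both libraries that stood apart) around 3529 at E11.5. Depth limits Epyc most, with 46 counts or fewer in a group.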
